A study of Mus musculus with 6 samples.

Results

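The antioxidant response controlled by NRF2 was followed through 10 genes among the 55385 annotated genes counted in the mouse liver libraries. These were the factor Nfe2l2 (the gene of NRF2), its inhibitor Keap1, the autophagy receptor Sqstm1, and 7 enzymes that are classical NRF2 targets: Nqo1, Srxn1, Gclc, Gclm, Gsr, Txnrd1 and Hmox1. They were listed by name as parts of the pathway, with earlier results of these data known, so their counts beside those of all genes are a description. All 10 were detected well enough to be tested. Male C57BL/6 wild-type mice, 6 to 8 weeks old when the diet began, ate a high-fat diet (HFD) for 10 weeks. They then had either vertical sleeve gastrectomy (VSG), in which most of the stomach is removed so that a narrow tube remains, or a sham operation. The same diet was continued for 12 weeks before liver was taken, so both groups were HFD-fed and there was no lean or unoperated group. Each group held 3 libraries of liver poly(A) RNA, 1 mouse each, which are called Sham 1 to 3 and VSG 4 to 6 as in their labels.

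NRF2 is a leucine zipper transcription factor that is normally short-lived, because KEAP1 holds it in the cytoplasm and presents it to a CUL3 ubiquitin ligase. Oxidants and electrophiles modify cysteines of KEAP1, NRF2 then escapes degradation, pairs with a small MAF protein in the nucleus and binds antioxidant response elements. The genes it turns on make glutathione, regenerate thioredoxin, detoxify quinones and other electrophiles, break down heme and supply NADPH, and in liver the pathway is best known for protection against drugs, bile acids and lipid peroxides. Since control of NRF2 is largely at the level of its protein, the mRNA of Nfe2l2 does not measure its activity.

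Between 22804397 and 24191778 reads were assigned to genes per library, and the lowest count of any of the 10 genes was 150, that of Nqo1 in VSG 6. Of 8 hepatocyte markers (Alb and Apob among them), 7 were matched. They summed to 72109 to 108245 CPM (counts scaled to a common library total) in sham and 56494 to 85281 CPM in VSG, none was at 0 and none passed the edgeR test used below (1 had an unadjusted p under 0.05, and DESeq2 called 1). Hepatocyte RNA was thus plentiful in every library. Expression is given below as CPM after library composition was scaled, which compares libraries for 1 gene, and as FPKM, which also divides by gene length, where genes are compared with each other. A gene was called changed at an adjusted p under 0.05 in edgeR's quasi-likelihood test, with the adjustment made over all 14454 genes tested. In whole liver RNA, fewer cells of a type and less RNA per cell cannot be told apart.

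VSG livers held less mRNA of Nqo1, Srxn1 and Gclc, and more of Hmox1, than sham livers. These were the 4 of 10 genes that passed the test, 3 lower and 1 higher, while 14.7% of all genes tested were called, 7.87% lower and 6.79% higher. The fold change was negative for 8 of the 10, against 47.6% of all genes tested, and the median log2 fold change was -0.30 against 0.03 over all genes tested. The groups did not overlap for 6 genes, with VSG below sham for Keap1, Nqo1, Gclc, Srxn1 and Sqstm1 and above it for Hmox1. Over all genes tested, 39.7% showed no overlap and 19.8% had VSG below sham. The log2 fold changes ran from -1.42 for Nqo1 to 2.11 for Hmox1, so the 10 genes did not move as 1 block. The share of counts from mitochondrial genes also differed without overlap, at 5.79%, 6.58% and 5.59% in Sham 1, 2 and 3 and 4.14%, 4.94% and 5.01% in VSG 4, 5 and 6, and its part in these differences was not tested.

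**Figure D1:**
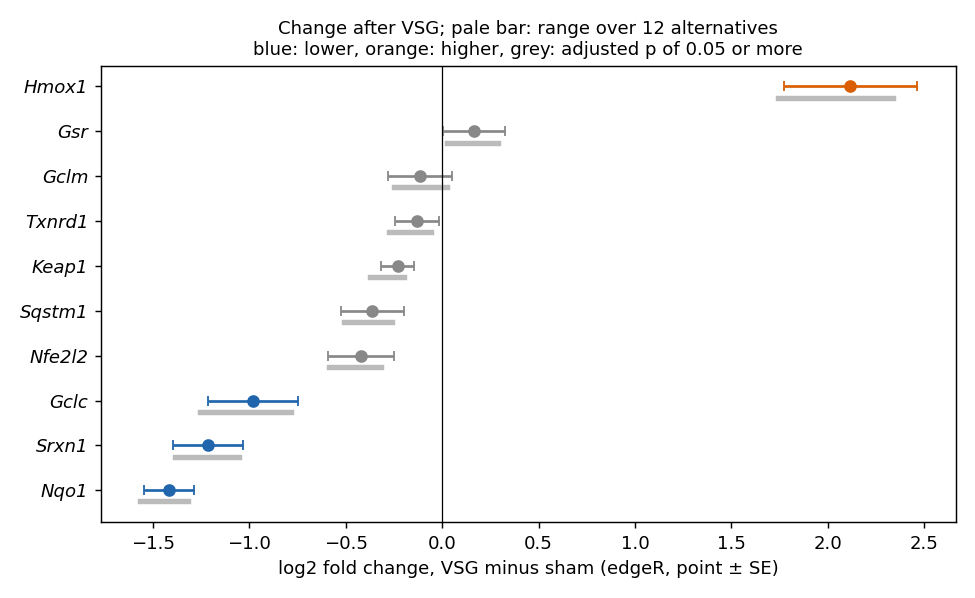
Log2 fold change of each of the 10 genes, VSG against sham, with error bars of 1 standard error from edgeR, blue for genes called lower, orange for higher and grey for not called. The pale bar under each point spans the values of the 12 alternative analyses. Nqo1 (-1.42), Srxn1 (-1.21) and Gclc (-0.98) lie to the left and Hmox1 (2.11) far to the right, while the other genes lie between -0.42 and 0.16.

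The regulators came first. Nfe2l2 (ENSMUSG00000015839.6, chromosome 2, 75675513 to 75704641, minus strand, mm10 as for every position given here) was measured at 146, 105 and 132 CPM in Sham 1, 2 and 3 and at 106, 78.5 and 101 CPM in VSG 4, 5 and 6. The groups overlapped, because VSG 4 lay just above Sham 2. The means were 128 ± 21.1 CPM in sham and 95.3 ± 14.7 CPM in VSG (SD, n = 3 each), a log2 fold change of -0.42 (SE 0.172, adjusted p = 0.139) that did not pass the threshold.

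Keap1 (ENSMUSG00000003308.15, chromosome 9, 21229730 to 21239361, minus strand), the cysteine-rich sensor that hands NRF2 to the ligase, stood at 45.8, 47.7 and 49.2 CPM in the sham libraries and at 38.7, 40.0 and 43.0 CPM in the VSG libraries. All 3 VSG libraries were below all 3 sham libraries, but the gap was small, from 47.6 ± 1.67 to 40.6 ± 2.18 CPM (SD, n = 3 each), and the log2 fold change of -0.23 (SE 0.0845) had an adjusted p of 0.110. Since Nfe2l2 and Keap1 were both lower on average, their balance was also read within each library. The ratio of Keap1 to Nfe2l2 in FPKM was 0.254, 0.369 and 0.301 in sham and 0.295, 0.412 and 0.343 in VSG, and these overlapped (exact two-sided permutation p = 0.5, where 3 libraries against 3 cannot go below 0.1).

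Sqstm1 (ENSMUSG00000015837.15, chromosome 11, 50199366 to 50210827, minus strand) encodes p62, which ties cargo to autophagosomes, binds KEAP1 and is itself an NRF2 target. It was read at 545, 435 and 448 CPM in sham and at 367, 421 and 324 CPM in VSG. Every VSG library was below every sham library, with VSG 5 just under Sham 2, and the log2 fold change of -0.36 (SE 0.163) gave an adjusted p of 0.171. Sqstm1 shares 580 exon bases with Mrnip on the opposite strand, which had 55 to 161 counts per library. Keap1 shares 510 with the opposite-strand gene Gm16754, which had 2 to 5.

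The clearest decrease was that of Nqo1 (ENSMUSG00000003849.8, chromosome 8, 107388225 to 107403206, minus strand), a quinone reductase that turns quinones into hydroquinones in a single step and is a usual readout of NRF2 activity. It was measured at 21.6, 17.7 and 17.6 CPM in sham and at 7.51, 6.67 and 7.16 CPM in VSG. All sham libraries were well above all VSG libraries, and the VSG libraries lay close together. The means were 19.0 ± 2.30 and 7.11 ± 0.423 CPM (SD, n = 3 each), 2.67-fold lower in VSG, with a log2 fold change of -1.42 (SE 0.130, adjusted p = 0.00429). Nqo1 kept its call in each of the 12 alternative analyses, with log2 fold changes between -1.57 and -1.32 and adjusted p-values of at most 0.0333.

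Srxn1 (ENSMUSG00000032802.8, chromosome 2, 152105516 to 152111376, plus strand) encodes sulfiredoxin, which repairs peroxiredoxins whose active cysteine has been over-oxidized. Its levels were 116, 71.9 and 97.4 CPM in sham and 44.8, 38.9 and 39.5 CPM in VSG. The sham libraries were spread, with Sham 2 lowest, and all VSG libraries lay below it. The mean fell from 95.2 ± 22.3 to 41.1 ± 3.22 CPM (SD, n = 3 each), 2.32-fold, with a log2 fold change of -1.21 (SE 0.182, adjusted p = 0.0133). The call was lost without Sham 3 (adjusted p = 0.0684) and without VSG 6 (0.0677), and the log2 fold change stayed between -1.38 and -1.05 in the alternatives.

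**Figure D2:**
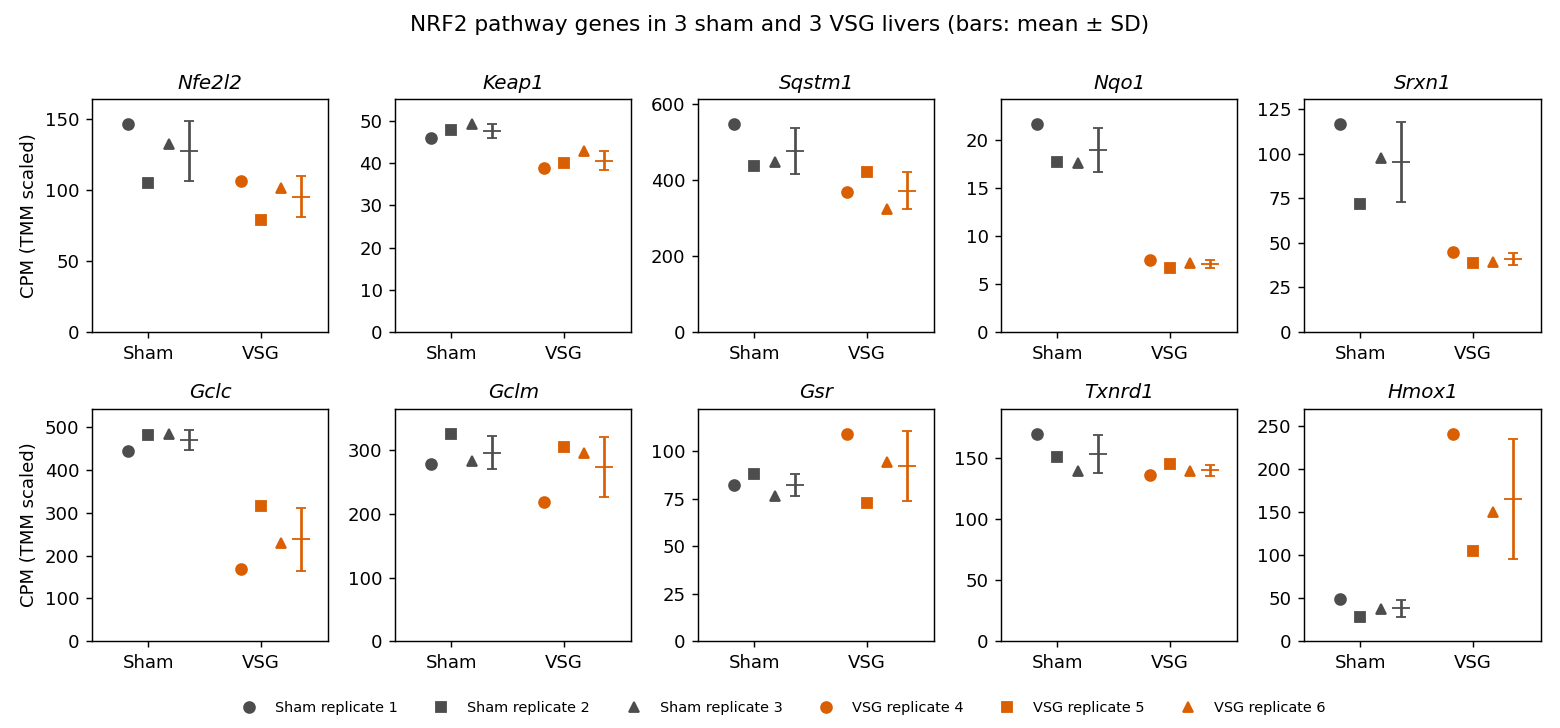
CPM of the 10 genes in each of the 6 libraries, 1 panel per gene with its own linear axis from 0, sham in grey and VSG in orange, with the group mean and SD (n = 3 each) beside the points. The VSG points of Nqo1, Srxn1 and Gclc lie below every sham point and those of Hmox1 above, while the groups of Nfe2l2, Gclm, Txnrd1 and Gsr overlap.

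The promoter letters of these genes are shown because the element NRF2 binds has a fixed core, TGACNNNGC, where N is any base. Windows from 250 bases before to 50 bases after the annotated start were taken from RefSeq (GRCm38.p6) and were found for 7 of the 10 genes, 9 windows in all. Gclc, Hmox1 and Gsr were not matched, and Txnrd1 had 3 windows. The core was searched on both strands and was present in 4 of the 9 windows, against 12.4% of all 32851 windows and 14.2% of the 13812 windows of tested genes. The matches are printed below with 6 bases on either side, from 5′ to 3′ along the gene, with the core in capitals. Those of Srxn1, Gclm and Txnrd1 lie on the reverse strand, so they read as GCNNNGTCA.
Nfe2l2 (chr2:75704614-75704913, minus strand): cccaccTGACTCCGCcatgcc
Srxn1 (chr2:152105274-152105573, plus strand): tgggcaGCTAGGTCAgagtga
Gclm (chr3:122245307-122245606, plus strand): ccgggcGCACCGTCAactctc
Txnrd1 (chr10:82858956-82859255, plus strand): atttttGCTTTGTCAttctga

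The match began 240 bases before the start of Nfe2l2, 134 before that of Gclm, 92 before that of Txnrd1 and 29 after that of Srxn1. No core was in the windows of Nqo1, Keap1 and Sqstm1 or in the other two of Txnrd1. None of these 4 shared bases with the related AP-1 motif TGANTCA. Of the 4 genes with a match, Srxn1 was called lower and Nfe2l2, Gclm and Txnrd1 were not called. The windows of the most strongly lowered genes show both cases, since that of Nqo1 holds no core and that of Srxn1 holds 1 (in capitals) and, apart from it, 2 matches to TGANTCA. A match here is a description of letters, and elements farther from the start were not searched.
Nqo1 (chr8:107403156-107403455, minus strand): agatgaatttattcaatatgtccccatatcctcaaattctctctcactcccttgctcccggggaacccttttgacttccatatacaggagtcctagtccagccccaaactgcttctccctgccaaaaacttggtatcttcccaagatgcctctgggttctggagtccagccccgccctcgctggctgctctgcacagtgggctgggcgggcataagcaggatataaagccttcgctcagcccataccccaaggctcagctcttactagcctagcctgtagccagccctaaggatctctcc
Srxn1 (chr2:152105274-152105573, plus strand): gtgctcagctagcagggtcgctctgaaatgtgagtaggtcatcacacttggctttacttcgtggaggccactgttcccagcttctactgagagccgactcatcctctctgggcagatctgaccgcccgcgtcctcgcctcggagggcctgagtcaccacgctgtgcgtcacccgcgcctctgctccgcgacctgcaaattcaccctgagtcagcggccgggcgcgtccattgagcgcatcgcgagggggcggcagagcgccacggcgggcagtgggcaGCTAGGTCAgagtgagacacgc

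Glutathione is made from cysteine, glutamate and glycine, and its first step is carried out by glutamate-cysteine ligase, a pair of subunits encoded by Gclc and Gclm. Gclc (ENSMUSG00000032350.9, chromosome 9, 77754535 to 77794485, plus strand) is the catalytic subunit. It was measured at 444, 483 and 485 CPM in sham and at 170, 316 and 230 CPM in VSG. The sham libraries were within a narrow range and the VSG libraries were all lower but spread, with VSG 5 the highest. The mean fell from 471 ± 23.5 to 239 ± 73.8 CPM (SD, n = 3 each), 1.97-fold, with a log2 fold change of -0.98 (SE 0.231, adjusted p = 0.0369).

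The call of Gclc was the least stable of the 4. Only when VSG 5 was the library left out did it stay, with adjusted p-values of 0.0726 without Sham 1, 0.0923 without Sham 2, 0.133 without Sham 3, 0.0569 without VSG 4 and 0.127 without VSG 6. The log2 fold change was negative throughout, from -1.26 to -0.78.

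Gclm (ENSMUSG00000028124.15, chromosome 3, 122245557 to 122270732, plus strand), the modifier subunit that makes the ligase more efficient, stood at 279, 326 and 284 CPM in sham and at 219, 306 and 296 CPM in VSG. The groups overlapped and only VSG 4 lay below them all, with a log2 fold change of -0.11 (SE 0.165, adjusted p = 0.649). Without VSG 4 the fold change turned to 0.02, so no direction can be given. Gclm shares 296 exon bases with Gm17494 on the opposite strand (1 to 4 counts per library) and 244 with the pseudogene Gm6061 on its own strand (0 counts), from which reads may not be separable.

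The ratio of the subunits within a library does not depend on how libraries are scaled. In FPKM, Gclc was 2.66, 2.47 and 2.85 times Gclm in sham and 1.29, 1.73 and 1.29 times in VSG. Every VSG library was below every sham library, with means of 2.66 ± 0.191 and 1.44 ± 0.251 (SD, n = 3 each), and the exact two-sided permutation p was 0.1, the smallest that 3 libraries against 3 can give. The ratio was chosen after the values of both genes were seen, so this p is no independent support.

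Gsr and Txnrd1 recycle what the peroxidases use up. Gsr (ENSMUSG00000031584.16, chromosome 8, 33652523 to 33698163, plus strand), glutathione reductase, stood at 82.2, 87.7 and 76.4 CPM in sham and at 109, 72.7 and 94.4 CPM in VSG. Txnrd1 (ENSMUSG00000020250.10, chromosome 10, 82833951 to 82897712, plus strand), the cytosolic thioredoxin reductase, stood at 170, 151 and 139 CPM in sham and at 136, 145 and 139 CPM in VSG. The groups overlapped for both, with log2 fold changes of 0.16 (SE 0.159, adjusted p = 0.491) for Gsr and -0.13 (SE 0.113, adjusted p = 0.440) for Txnrd1. Neither passed the threshold in any of the 12 alternatives, nor did Gclm, Nfe2l2, Keap1 or Sqstm1.

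Hmox1 (ENSMUSG00000005413.8, chromosome 8, 75093621 to 75100589, plus strand) moved the other way. It encodes heme oxygenase 1, which splits heme into biliverdin, iron and carbon monoxide and is strongly expressed in macrophages that clear red cells. Besides NRF2, it is under the control of the heme-sensing repressor BACH1. It was measured at 48.6, 28.0 and 37.6 CPM in sham and at 241, 104 and 150 CPM in VSG, so every VSG library lay above every sham library. The mean rose from 38.1 ± 10.3 to 165 ± 69.4 CPM (SD, n = 3 each), 4.33-fold, with a log2 fold change of 2.11 (SE 0.345, adjusted p = 0.0163). The call was lost without Sham 3 (adjusted p = 0.0876) and without VSG 6 (0.0649), and the log2 fold change stayed between 1.74 and 2.34.

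Markers of immune cells were higher in the same libraries. Of 8 Kupffer cell and macrophage markers, 4 rose (Clec4f, Vsig4, Timd4 and Marco) and none fell. That was 50%, against 14.7% of all genes tested, and no marker was at 0 in any library. Their summed level was 730, 345 and 509 CPM in Sham 1, 2 and 3 and 2165, 742 and 1376 CPM in VSG 4, 5 and 6. Of 8 monocyte and neutrophil markers, 5 rose (S100a8, S100a9, Ly6g, Mpo and Elane) and none fell, which is 62.5%. Their sums were 35.0, 10.3 and 19.8 CPM in sham and 1251, 100.4 and 561 CPM in VSG. Ly6g and Mpo were at 0 in Sham 2.

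Within each group Hmox1 and both sums had the same order, with Sham 1 above Sham 3 above Sham 2 and VSG 4 above VSG 6 above VSG 5. Nfe2l2 had that order as well, so it was not particular to Hmox1 and the immune markers. Among the called macrophage markers, Marco (26.7, 6.30 and 3.91 CPM) and Timd4 (6.87, 3.29 and 2.55 CPM) departed from it in Sham 1, 2 and 3. VSG 5 and Sham 1 had nearly the same macrophage sum, 742 and 730 CPM, and Hmox1 was 104 CPM in VSG 5 and 48.6 CPM in Sham 1. The single markers differed, however, so these livers were not matched for macrophages. Higher in VSG 5 than in Sham 1 were Marco (101 against 26.7 CPM), Timd4 (14.3 against 6.87), Clec4f (128 against 93.9) and Vsig4 (59.9 against 50.3). Lower were Cd5l (237 against 311 CPM), Adgre1 (43.3 against 69.2) and Cd68 (32.6 against 47.2), and Csf1r was close (126 against 124). None of the 8 erythroid markers was called by edgeR (1 had an unadjusted p under 0.05, and DESeq2 called 1), with sums of 134 to 198 CPM in sham and 186 to 289 CPM in VSG. The part of these cells in the rise of Hmox1 was not tested.

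**Figure D3:**
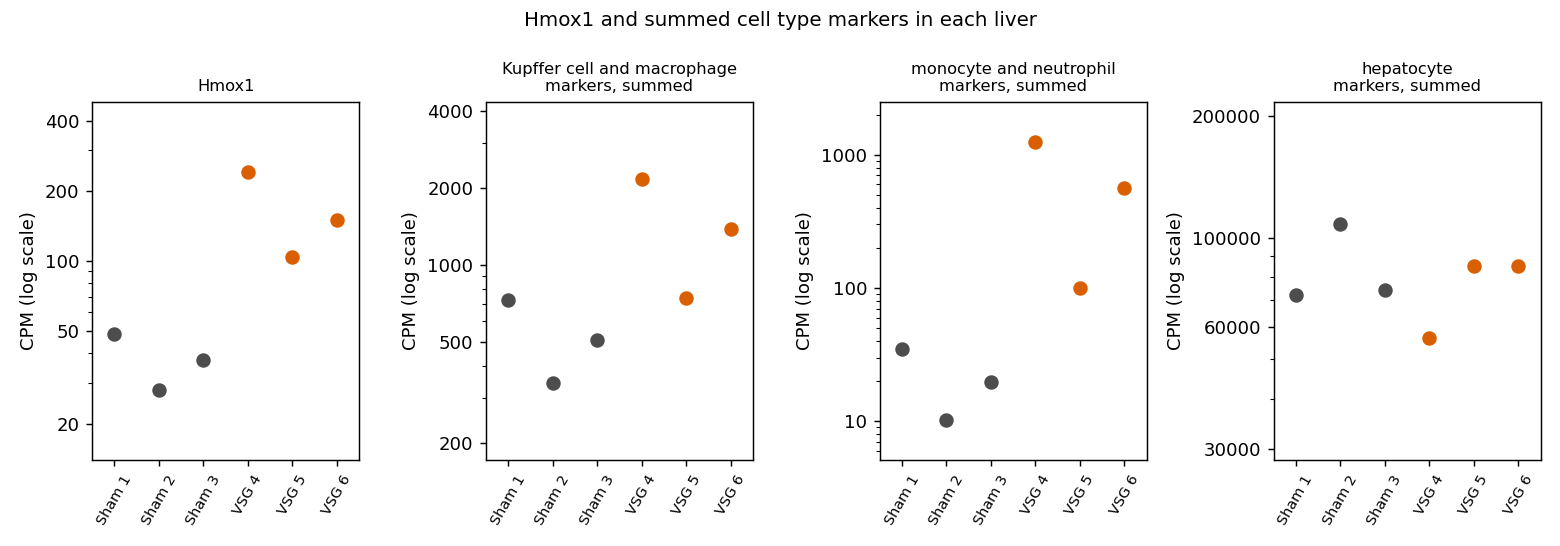
CPM of Hmox1 and the summed CPM of the 8 Kupffer cell and macrophage markers, the 8 monocyte and neutrophil markers and the 7 hepatocyte markers, 1 panel each, with 1 point per library and a logarithmic axis. Hmox1 is lowest in Sham 2 (28.0 CPM) and highest in VSG 4 (241 CPM), which also have the lowest and highest sums of both immune lists, while the hepatocyte sum is highest in Sham 2 and lowest in VSG 4.

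Other cell types were set beside the 3 decreases in the same way. Of 6 stellate cell markers, 1 fell (Reln) and none rose, which is 16.7% and near the 14.7% of all genes tested. All 6 had negative fold changes (median -1.12 on the log2 scale), with sums of 555 to 756 CPM in sham and 252 to 492 CPM in VSG. Of 6 sinusoidal endothelial markers, none was called by edgeR or DESeq2 and 0 had an unadjusted p under 0.05, with sums of 290 to 347 and 294 to 368 CPM. Of 5 bile duct markers, 1 rose (Sox9), which is 20% against the same 14.7%. The other 4 had negative fold changes that did not pass the test (median of the list -0.76), with sums of 57.7 to 253 and 73.4 to 200 CPM. Their part in the decreases was not tested.

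Divided by gene length, the 10 genes spanned a wide range. In sham, Sqstm1 (142 ± 18.0 FPKM) and Gclc (125 ± 6.23) were the highest, followed by Gclm (47.1 ± 4.14), Srxn1 (33.8 ± 7.92), Nfe2l2 (33.6 ± 5.56), Gsr (29.8 ± 2.05), Hmox1 (21.7 ± 5.90), Txnrd1 (21.6 ± 2.20), Nqo1 (12.2 ± 1.48) and Keap1 (10.1 ± 0.356; SD, n = 3 each). From Srxn1 to Txnrd1 each gene overlapped its neighbour in this order. In VSG, Hmox1 was second at 94.3 ± 39.7 FPKM, between Sqstm1 (110 ± 14.5) and Gclc (63.3 ± 19.6), though neighbours overlapped from Sqstm1 down to Nfe2l2 (25.1 ± 3.87). Srxn1 (14.6 ± 1.14) now stood below Txnrd1 (19.7 ± 0.662), and Nqo1 (4.58 ± 0.272) was the lowest, below Keap1 (8.65 ± 0.464). From Nfe2l2 downward neighbours in the VSG order did not overlap.

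The 2 targets that moved farthest apart were also compared within libraries, a pair chosen after their values were seen. Hmox1 was 1.99, 1.40 and 1.90 times Nqo1 in sham and 28.4, 13.9 and 18.6 times Nqo1 in VSG, in FPKM. The geometric mean of the ratio was 11.1-fold higher in VSG, with an exact two-sided permutation p of 0.1. Since each gene alone separated the groups, in opposite directions, the ratio could not overlap and this p adds nothing.

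The wider pathway was read from 89 further genes in 8 lists, written with the same knowledge, of which 86 could be tested. Of these, 31 passed the threshold (36.0%, against 14.7% of all genes tested), 25 lower and 6 higher, and 66 had a negative fold change. The median log2 fold change was -0.35. Lower calls outnumbered higher ones in 5 lists, higher ones did in 2 (heme breakdown and the partners of NRF2), and 1 list had no call. When 1 library was left out, between 8 and 31 of the 86 passed, and the lowest counts came without VSG 6 (8), without Sham 3 (9) and without Sham 2 (16).

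**Figure D4:**
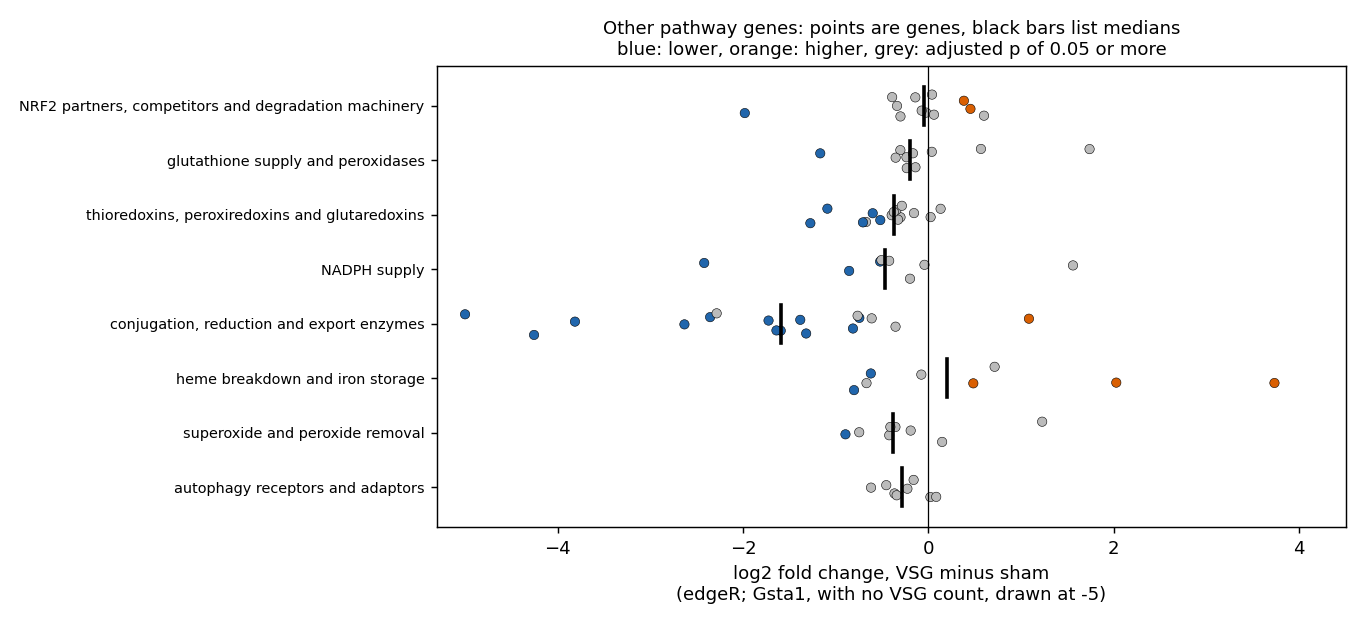
Log2 fold change, VSG against sham, of each tested gene in the 8 further lists, 1 row of points per list, blue for called lower, orange for called higher and grey for not called, with the list median as a black bar and Gsta1, which had no count in VSG, placed at -5. The conjugation, reduction and export enzymes lie farthest to the left, with a median of -1.59, and heme breakdown and iron storage is the list with a positive median, 0.20.

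The enzymes of conjugation, reduction and export, which attach glutathione or glucuronic acid to foreign compounds, reduce carbonyls and pump the products out, held the most calls. Of 17 tested, 12 fell and 1 rose (76.5%, against 14.7% of all genes tested). A negative fold change was found for 16, and the median was -1.59. Of the 13 calls, 7 were kept without Sham 3 and 7 without VSG 6. Gsta1, an alpha-class glutathione transferase, reached 9.86, 2.47 and 5.13 CPM in sham livers and stood at 0 in all VSG libraries, at least 42.9-fold lower (against 3 counts per library, adjusted p = 0.0162). Without Sham 1 that bound was 28.0-fold, and the call was lost without Sham 3 (adjusted p = 0.0775) and without VSG 6 (0.0576).

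Gstm3, of the mu class, reached 167, 43.0 and 56.8 CPM in sham livers and stood at 6.20, 3.33 and 4.44 CPM in VSG. Its log2 fold change was -4.26 (SE 0.597, adjusted p = 0.0114), or -3.43 without Sham 1, and the call was lost without VSG 6 (adjusted p = 0.0649). Gstp1, of the pi class, was the gene that rose, from 114 ± 5.40 to 243 ± 36.1 CPM (SD, n = 3 each), a log2 fold change of 1.08 (SE 0.138, adjusted p = 0.00934). It lost its call without Sham 3 (adjusted p = 0.0612). Glutathione transferases have near-identical copies, so how reads were divided among them is uncertain.

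In this list and the others, 7 of the 31 called genes kept their call whichever library was left out. These were Me1 and, named here after their values were seen, Gsta2, Gsta4, Gstm1, Cbr1, Ugdh and Abcc3. Gsta4, which conjugates the lipid peroxidation product hydroxynonenal, reached 67.8, 70.2 and 55.9 CPM in sham livers and stood at 8.73, 10.3 and 12.3 CPM in VSG (log2 fold change -2.63, adjusted p = 0.00177). Gstm1, of the mu class, was at 1272, 1064 and 971 CPM and at 174, 264 and 208 CPM (log2 fold change -2.36, adjusted p = 0.00413). In both genes every VSG library was far below every sham library.

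The carbonyl reductase Cbr1 had a log2 fold change of -1.38 (adjusted p = 0.00645), Ugdh, which makes the glucuronic acid donor, -1.73 (adjusted p = 0.00732), and the export pump Abcc3 -1.64 (adjusted p = 0.00725). Gsta2 fell from 14.3 ± 6.23 to 1.01 ± 0.460 CPM (SD, n = 3 each, adjusted p = 0.00742).

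NADPH, the reductant that Nqo1, Gsr and Txnrd1 all draw on, is supplied by malic enzyme and the pentose phosphate pathway. Of 8 genes in this list, 3 fell and none rose (37.5%, against 14.7% of all genes tested), with a median of -0.47. Me1, the cytosolic malic enzyme and also a lipogenic gene, reached 70.2, 108 and 87.9 CPM in sham livers and stood at 16.1, 18.3 and 15.3 CPM in VSG, a log2 fold change of -2.42 (SE 0.177, adjusted p = 0.00197). That value was lower than any among the 10 genes, and the groups were far apart. Tkt, the transketolase of the pentose phosphate pathway, fell from 140 ± 15.7 to 77.5 ± 13.1 CPM (log2 fold change -0.86, adjusted p = 0.0207). Its call was lost without Sham 2, Sham 3 or VSG 6 (adjusted p = 0.0587, 0.0940 and 0.0853), with log2 fold changes of -0.83, -0.80 and -0.84. Without Sham 2, Sham 3 or VSG 6, Me1 was the 1 gene of the 3 that stayed called. The pentose phosphate genes G6pdx and Pgd, named here after their values were seen, were not called and did not share the fall. G6pdx had the largest positive log2 fold change of the list, 1.56 (adjusted p = 0.107), with overlapping groups, and Pgd had -0.04 (adjusted p = 0.943).

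Of 15 thioredoxins, peroxiredoxins, glutaredoxins and their partners, 5 fell and none rose (33.3%, against 14.7% of all genes tested), with a median of -0.37. None of the 5 kept its call without Sham 3 or without VSG 6, and 1 did without Sham 2. Txnip, which binds and inhibits thioredoxin and is induced by glucose, fell from 194 ± 46.4 to 80.1 ± 22.2 CPM (SD, n = 3 each, log2 fold change -1.27, adjusted p = 0.0270). Glrx5, a mitochondrial glutaredoxin of iron-sulfur cluster assembly, fell from 65.5 ± 13.1 to 30.8 ± 2.52 CPM (log2 fold change -1.09, adjusted p = 0.0130). The call of Txnip was lost without Sham 2, Sham 3, VSG 4 or VSG 6 (adjusted p = 0.0629 to 0.112) and that of Glrx5 without Sham 3 (0.0684) or VSG 6 (0.0623). Txnip opposes thioredoxin, so these members do not all act in 1 direction.

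Of 10 tested genes of glutathione supply and peroxidases, 1 fell and none rose (10%, below the 14.7% of all genes tested), with a median of -0.20. It was Gpx4, the peroxidase that reduces lipid hydroperoxides in membranes, at 49.4 ± 6.48 CPM in sham livers and 22.0 ± 2.85 CPM in VSG (SD, n = 3 each, log2 fold change -1.17, SE 0.141, adjusted p = 0.00809). Its call was lost without VSG 6 (adjusted p = 0.0520). Of 8 genes that remove superoxide and peroxide, 1 fell (12.5%, also below 14.7%), namely Msra, which repairs oxidized methionine, from 167 ± 23.9 to 89.7 ± 11.6 CPM (log2 fold change -0.90, adjusted p = 0.0183). Msra was not called without Sham 2, Sham 3 or VSG 6 (adjusted p = 0.0524, 0.0896 and 0.0637). The largest change of that list went up, that of Osgin1, named here after its values were seen and not called (log2 fold change 1.23, adjusted p = 0.0778). Osgin1 was at 115, 40.1 and 96.5 CPM in sham and at 163, 254 and 171 CPM in VSG.

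In heme breakdown and iron storage, 3 of 8 genes rose and 2 fell. That was 62.5%, against 14.7% of all genes tested, and the median was 0.20. None of the 5 calls was kept without Sham 3 or without VSG 6, and 2 were without Sham 2. Cd163, the macrophage receptor for hemoglobin bound to haptoglobin, reached 2.14, 11.1 and 5.74 CPM in sham livers and stood at 71.7, 47.8 and 130 CPM in VSG (log2 fold change 3.73, SE 0.638, adjusted p = 0.0176). All VSG libraries were above all sham libraries, but the order of the VSG libraries was not that of Hmox1, since VSG 6 was highest for Cd163. In sham the order was the reverse of that of Hmox1, with Sham 2 highest and Sham 1 lowest for Cd163. Without Sham 2 the log2 fold change was 4.40, and the call was lost without Sham 3 (adjusted p = 0.0940) and VSG 6 (0.0677).

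Hpx, the plasma protein that carries free heme and is made by hepatocytes, reached 4370 ± 774 CPM in sham livers and 17806 ± 6976 CPM in VSG (SD, n = 3 each, log2 fold change 2.03, adjusted p = 0.0260), a call that held only when VSG 5 was the library left out. Ftl1, the ferritin light chain, fell from 169 ± 18.3 to 97.1 ± 7.22 CPM (log2 fold change -0.80, adjusted p = 0.0141), and Blvrb, a biliverdin reductase, from 74.8 ± 8.20 to 48.6 ± 4.91 CPM (log2 fold change -0.62, adjusted p = 0.0245). Both calls were lost without Sham 3 (adjusted p = 0.0556 and 0.101) and VSG 6 (0.0687 and 0.0842), and that of Blvrb also without Sham 2 (0.0654). Ftl1 has near-identical pseudogene copies, so its count is uncertain.

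Among 12 tested partners, competitors and degradation factors of NRF2, 2 rose and 1 fell. That was 25%, against 14.7% of all genes tested, and the median was -0.05. Bach1, the repressor that competes with NRF2 for its elements, reached 52.9 ± 2.29 CPM in sham livers and 72.4 ± 9.29 CPM in VSG (SD, n = 3 each, log2 fold change 0.45, SE 0.114, adjusted p = 0.0435). Crebbp, a coactivator that acetylates NRF2, was at 45.5 ± 1.87 and 59.3 ± 5.13 CPM, a log2 fold change of 0.38 (SE 0.0962, adjusted p = 0.0435). Both calls were lost whichever library was left out, with adjusted p-values up to 0.167 for Bach1 and 0.140 for Crebbp. Both were also lost with total counts as the scale (0.242 and 0.265) and with all 27530 genes kept that had any count (0.0792 and 0.109).

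Maff, a small MAF partner of NRF2, fell from 13.0 ± 5.02 to 3.28 ± 1.15 CPM (SD, n = 3 each), a log2 fold change of -1.98 (SE 0.371, adjusted p = 0.0217). Its call was lost without Sham 2 (adjusted p = 0.0518), Sham 3 (0.0881) and VSG 6 (0.0831). Within each library, Bach1 was 0.234, 0.306 and 0.238 times Nfe2l2 in sham and 0.386, 0.650 and 0.410 times Nfe2l2 in VSG, in FPKM. The ratio was chosen after both genes were seen, and its groups did not overlap (exact two-sided permutation p = 0.1, the smallest possible and no independent support).

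Of 8 autophagy receptors and adaptors, the group to which Sqstm1 belongs, none was called by edgeR or DESeq2, 2 had an unadjusted p under 0.05, and the median was -0.29. The gene with the smallest p among them was Calcoco1, a receptor for autophagy of the endoplasmic reticulum, at 42.1 ± 2.58 CPM in sham livers and 30.7 ± 7.09 CPM in VSG (SD, n = 3 each, log2 fold change -0.46, adjusted p = 0.108). It passed the threshold when VSG 5 was left out (adjusted p = 0.0145).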

How the data were processed

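Liver poly(A) RNA from 3 sham-operated and 3 VSG-operated HFD-fed mice was measured in strand-specific libraries. The authors aligned reads to mm10 with STAR 2.6.0 after FastQC 0.10.1 and deposited raw counts per gene from featureCounts (2.0.3 in the submitters' processing notes), with gene lengths. The strand setting of the counting is not given in the sources used here. Gene symbols were taken from GENCODE M21, which matched 55144 of 55385 identifiers. Groups came from the labels. Replicates are separate mice.

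Genes with at least 10 counts in enough libraries and 15 in all were kept (14454) and tested with edgeR 4.0.16 in R 4.3.3 (quasi-likelihood, TMM factors of 0.897 to 1.15, group as the only term, Benjamini-Hochberg adjustment, threshold 0.05), after a check on simulated counts. CPM used the TMM totals, and FPKM also the deposited lengths. Alternatives were DESeq2 1.42.0, limma 3.58.1 (voom), other scalings and filters, and leaving out each library.

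The 10 genes and all lists were chosen with earlier results of these data known. From each list the genes named were the 2 with the largest called change in each direction, or the gene with the smallest p where none was called, and other names are given as chosen after their values were seen. The floor of 3 counts covers counting error only, whereas SDs and SEs include the spread between mice.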

Additional observations from a re-analysis of the deposited data

How the results depend on the processing

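Of the 10 genes, 4 were called, and between 1 and 4 when a library was left out, with Nqo1 alone called without Sham 3 and without VSG 6. Over all genes tested 2118 were called, 159 to 2732 when a library was left out (159 without Sham 3, 210 without VSG 6, 797 without Sham 2, 1076 without VSG 4, 1214 without Sham 1) and 3252 with DESeq2, which fitted 27530 genes against 14454. The further pathway genes gave 31 calls, 8 to 31 when a library was left out and 43 of 89 with DESeq2, against 31 of 86. The cause of these differences was not tested. The log2 fold change of Gclm ran from -0.22 to 0.02 when a library was left out and was 0.0235 without VSG 4, the only change of direction among the 10 genes. Without composition factors (total counts) the median of all genes moved by -0.14, the split of calls from 981 higher and 1137 lower to 486 and 1512, and that of the pathway genes from 6 and 25 to 3 and 30, with 28 of the 31 calls shared. No paired analysis was possible because sham and VSG libraries share no replicate number.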
